A study of Homo sapiens with 12 samples.

Results

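Aurora kinases are serine/threonine kinases that drive the steps of mitosis. Here 7 genes of this group were examined among the 60671 genes of a deposited RNA sequencing table: the kinases AURKA and AURKB, the Aurora A cofactors TPX2 and BORA, and INCENP, CDCA8 and BIRC5, the other subunits of the chromosomal passenger complex. They were chosen by name, and all 7 were found in the table. The 12 libraries were labelled as Jurkat, an established line from a human T cell leukemia, and formed 4 groups of 3. NC+DMSO and NC+VCR were control cells, which the labels call wild type and the study's methods describe as carrying the pHIV7/SFFV-GFP lentiviral vector. PTPN21+DMSO and PTPN21+VCR were cells overexpressing FLAG-tagged PTPN21, a non-receptor protein tyrosine phosphatase, from the viral SFFV promoter. VCR is vincristine, DMSO is its solvent, and treatment lasted 48 h at a VCR dose that the sources used here do not state for these libraries. The sources do not say whether the libraries of a group came from separate cultures, so the p-values measure only the spread between these libraries, which may be technical. The question was how the Aurora kinases and their partner genes stood in cells exposed to a spindle poison, with and without the phosphatase.

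Aurora A gathers at centrosomes and spindle poles, where TPX2 binds and activates it on spindle microtubules, and BORA lets it phosphorylate PLK1 before mitosis. Aurora B works in the chromosomal passenger complex, in which INCENP is the scaffold that binds and activates the kinase, and CDCA8 (Borealin) and BIRC5 (Survivin) bind the other end of INCENP and bring the complex to the inner centromere. There Aurora B corrects faulty attachments of microtubules and keeps the spindle checkpoint active. Vincristine binds tubulin and blocks spindle formation, and many of these genes are transcribed mainly in G2 and M phase.

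The markers of the labelled cell line were mostly missing from these libraries. Of 12 T lineage markers, CD247, CD28, CD5, LCK and TRAT1 were listed at 0 in all 12 libraries, and only CD3D, at 61.8 to 139.7 FPKM, had a mean of at least 1 FPKM. FPKM is the number of fragments relative to the length of the gene and the depth of the library. Of 4 erythroid markers, 3 were at 1 FPKM or above in every library, with HBA1 at 49.4 to 190.1 FPKM and ALAS2 at 3.59 to 12.6 FPKM. Of 7 epithelial and stromal markers, EPCAM at 58.4 to 122.7 FPKM and KRT8 at 236.4 to 1186 FPKM were present in every library, with KRT18 and KRT19. The 6 B cell markers had no mean of 1 FPKM or more, and 3 of 6 myeloid markers did, among them CD33 at 20.5 to 44.4 FPKM. These levels go against the label, so the libraries are called by their groups below. The summed erythroid markers were 140.2 to 160.9 FPKM in NC+DMSO and 75.7 to 91.4 in NC+VCR, against 212 to 316.1 in PTPN21+DMSO and 100.2 to 121.4 in PTPN21+VCR. The summed epithelial and stromal markers were 603.3 to 800.8 FPKM in NC+DMSO and 1695 to 1797 in NC+VCR, against 758.1 to 852.5 in PTPN21+DMSO and 1678 to 2218 in PTPN21+VCR. Both sums moved with the groups, and their part in the results was not tested.

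As a check of the labels, PTPN21 was at 0.0638 ± 0.0378 FPKM (SD, n = 3) in NC+DMSO and 0.367 ± 0.205 in NC+VCR, against 8.82 ± 1.48 in PTPN21+DMSO and 5.74 ± 1.21 in PTPN21+VCR. Every library labelled PTPN21 was above every NC library. The fragments per library, estimated from the steps in which low values fall, were 14500000 to 17800000 in the NC groups and 20500000 to 24000000 in the PTPN21 groups, so depth and construct cannot be told apart. At these estimates BORA rested on 145 to 422 fragments in a library and each of the other 6 genes on 585 or more. The share of FPKM from mitochondrial genes was 11.4% to 11.7% in NC+DMSO and 9.27% to 9.99% in PTPN21+DMSO, against 6.21% to 7.03% in NC+VCR and 6.47% to 7.89% in PTPN21+VCR.

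In GENCODE release 29 (GRCh38), AURKA (ENSG00000087586) occupies chromosome 20 from 56369389 to 56392337 on the minus strand, and TPX2 (ENSG00000088325) lies on the plus strand of the same chromosome from 31739271 to 31801805. AURKB (ENSG00000178999) occupies chromosome 17 from 8204733 to 8210600 on the minus strand, and BIRC5 (ENSG00000089685) lies on the plus strand of chromosome 17 from 78214186 to 78225636. INCENP (ENSG00000149503) is on the plus strand of chromosome 11 from 62123973 to 62153163, CDCA8 (ENSG00000134690) on the plus strand of chromosome 1 from 37692418 to 37709719, and BORA (ENSG00000136122) on the plus strand of chromosome 13 from 72727749 to 72756198. The gene span of BORA, introns included, shares 4030 bases with that of DIS3 on the opposite strand. How many of these bases are exonic was not counted. The sources do not state whether strand was used in counting, so reads of BORA and DIS3 may not be separable there. AURKA has a pseudogene, AURKAP1, that was itself listed at 3.37 to 17.5 FPKM, while AURKAP2 and AURKC, the third Aurora kinase gene, were listed at 0 in all libraries.

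Promoter sequences (RefSeq, GRCh38.p14, 250 bases before to 50 after the start) were at hand for 4 of the 7 genes: CDCA8, INCENP, AURKB and BORA. AURKA, TPX2 and BIRC5 had no entry. Those of CDCA8, INCENP and AURKB are shown because the log2 fold changes of these 3 subunits of one complex differed in direction below. Of the 3, only CDCA8 passed the test of single genes on the deposited scale, in 1 comparison. The letters searched on both strands were TTTGAA, the core of the cell cycle genes homology region bound by MuvB complexes, and CCAAT, the box bound by NF-Y, which reads ATTGG on the other strand. Matches are in capitals.
CDCA8, chr1:37692266-37692565, plus strand: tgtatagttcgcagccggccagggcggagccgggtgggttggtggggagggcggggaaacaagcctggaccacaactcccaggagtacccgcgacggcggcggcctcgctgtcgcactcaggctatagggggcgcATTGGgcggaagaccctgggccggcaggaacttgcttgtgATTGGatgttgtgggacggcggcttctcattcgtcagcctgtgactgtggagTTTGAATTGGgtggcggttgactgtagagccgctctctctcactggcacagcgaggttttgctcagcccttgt
INCENP, chr11:62123761-62124060, plus strand: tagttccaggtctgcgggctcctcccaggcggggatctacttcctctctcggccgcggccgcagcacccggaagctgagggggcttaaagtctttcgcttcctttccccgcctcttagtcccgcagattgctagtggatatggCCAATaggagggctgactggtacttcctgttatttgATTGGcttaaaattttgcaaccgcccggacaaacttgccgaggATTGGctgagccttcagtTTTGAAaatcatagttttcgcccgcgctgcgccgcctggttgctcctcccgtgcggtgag
AURKB, chr17:8210176-8210475, minus strand: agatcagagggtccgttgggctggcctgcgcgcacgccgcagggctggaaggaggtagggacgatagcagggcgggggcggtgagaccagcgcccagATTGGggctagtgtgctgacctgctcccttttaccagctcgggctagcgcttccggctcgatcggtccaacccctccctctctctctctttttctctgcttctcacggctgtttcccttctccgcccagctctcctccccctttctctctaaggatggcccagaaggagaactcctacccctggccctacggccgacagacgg
CDCA8 had 1 TTTGAA, 23 bases before the start, and 3 CCAAT matches, of which the nearest to the start overlaps the TTTGAA and forms 1 run of capitals with it. INCENP had 1 TTTGAA, 10 bases before the start, and 3 CCAAT matches. BORA had 1 TTTGAA, 177 bases before the start, and 2 CCAAT matches. AURKB had no TTTGAA and 1 CCAAT match in the window shown, and the same in its other RefSeq window, chr17:8210200-8210499. These AURKB windows lie inside the GENCODE span of this minus-strand gene, which begins at 8210600. The bases before that position were not searched, whereas the windows of CDCA8, INCENP and BORA include their GENCODE starts. The AURKB matches are therefore not comparable with those of the other genes. Among 35116 promoter windows of this length, 15.2% held TTTGAA, 34.6% held CCAAT and 5.9% held both. A match is a description of the letters only.

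All 7 genes had a mean of at least 1 FPKM over the 12 libraries and entered the test with 11591 genes in all. Their means over the 12 libraries ranged from 4.87 FPKM for BORA to 174.4 for TPX2, where the median of all genes tested was 6.64 FPKM. TPX2 was the highest of the 7 in each group and BORA the lowest, and AURKA was second in each group. The ranges of TPX2 and AURKA overlapped in PTPN21+VCR and did not in the other 3 groups. AURKB and CDCA8 were neighbours whose libraries overlapped in NC+DMSO, NC+VCR and PTPN21+VCR. In PTPN21+DMSO the ranges of AURKA and AURKB met, although AURKA was the higher in each of the 3 libraries. INCENP was above BIRC5 in the mean of NC+DMSO, with overlapping libraries, and below it in every library of PTPN21+VCR.

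**Figure D1:**
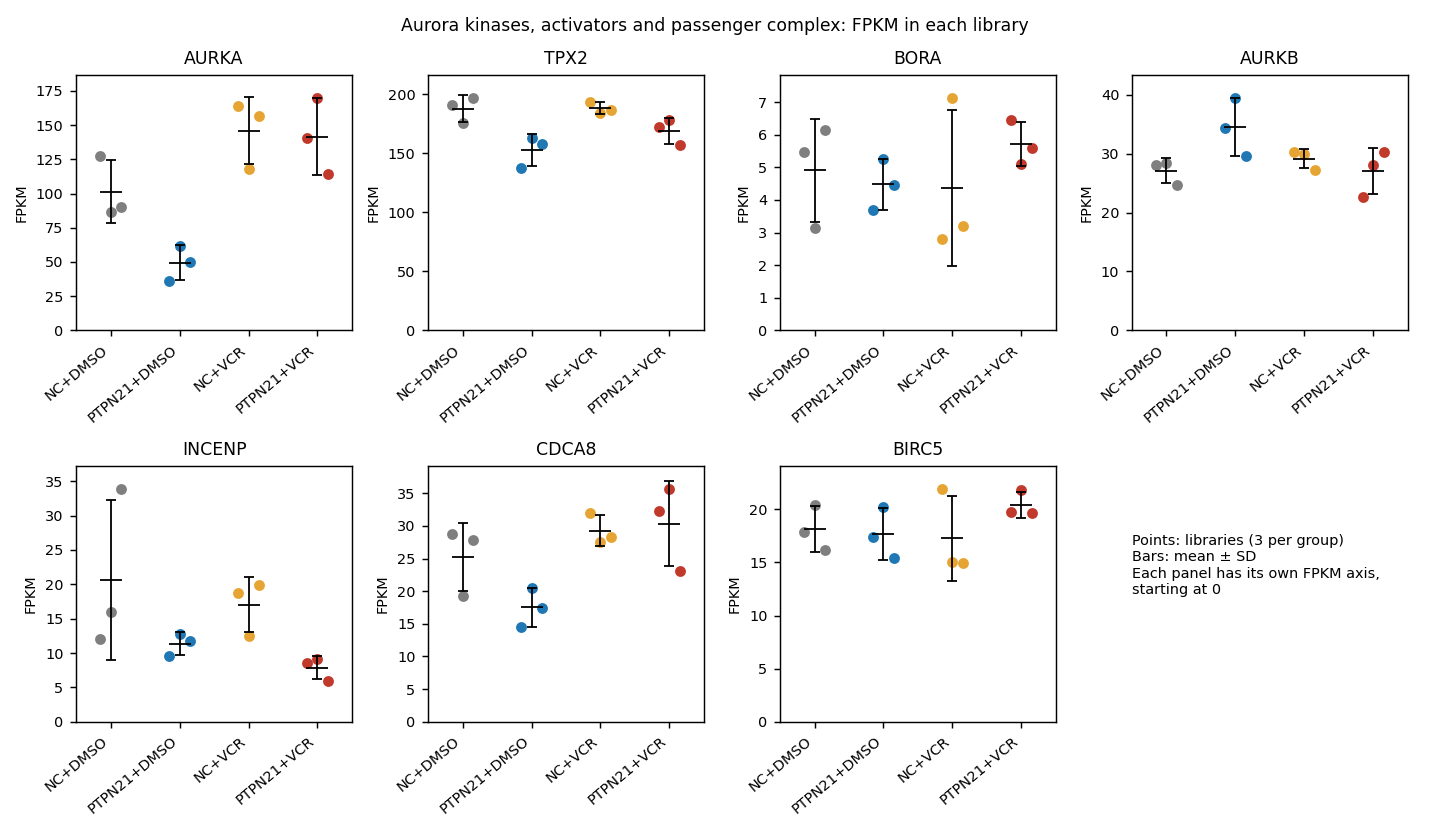
FPKM of the 7 genes in each of the 12 libraries, by group, with 1 panel and 1 linear axis from 0 per gene; points are libraries and bars are mean ± SD (n = 3). AURKA is lowest in PTPN21+DMSO, at 36.3 to 61.6 FPKM, and TPX2 stays between 137.4 and 196.9 FPKM in all libraries.

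AURKA, the kinase of centrosomes and spindle poles, had the largest log2 fold change of the 7 genes. Its FPKM was 127.7, 86.4 and 89.9 in NC+DMSO, 36.3, 61.6 and 50.3 in PTPN21+DMSO, 164.0, 117.7 and 156.4 in NC+VCR, and 140.7, 169.9 and 114.1 in PTPN21+VCR. All 3 PTPN21+DMSO libraries were below the other 9, while the 2 VCR groups overlapped each other and NC+VCR also overlapped NC+DMSO. With VCR in PTPN21 cells AURKA rose 2.85-fold on the FPKM + 1 scale, or by 1.51 ± 0.222 (SE) on the log2 scale (adjusted p = 0.000458), and it passed in all 21 alternatives. The 4 VCR and PTPN21 comparisons used log2(FPKM + 1) in limma with Benjamini-Hochberg adjustment over all 11591 genes and a threshold of 0.05. In bulk RNA, fewer cells in mitosis and less AURKA RNA per cell cannot be told apart.

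Without VCR, AURKA fell by 1.03 on the log2 scale in PTPN21+DMSO against NC+DMSO (SE 0.222, adjusted p = 0.0255). This call was lost without NC+DMSO replicate 1 (limma adjusted p = 0.0796), NC+DMSO replicate 3 (0.0672), PTPN21+DMSO replicate 1 (0.109) or PTPN21+DMSO replicate 3 (0.0664), with log2 fold changes of -0.83 to -1.20 over the 12 libraries left out in turn. It was also lost with the replicate number as a block (limma adjusted p = 0.0537). In control cells the log2 fold change with VCR was 0.53 (SE 0.222, adjusted p = 0.0807), and 0.71 (0.0400) without NC+DMSO replicate 1. Between PTPN21+VCR and NC+VCR it was -0.05, with a 95% interval of -0.53 to 0.43. The interaction, which asks whether the VCR response differed between PTPN21 and control cells, was 0.98 for AURKA (SE 0.314, limma adjusted p = 0.218) and did not pass. The 4 groups ordered by mean AURKA were in the reverse of their order by the summed erythroid markers, which were highest in PTPN21+DMSO and lowest in NC+VCR, although the VCR groups overlapped in AURKA. The summed epithelial and stromal markers were higher in both VCR groups than in both DMSO groups, and the part of either sum in the AURKA result was not tested.

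The pseudogene AURKAP1 was highest in NC+DMSO. Its FPKM was 13.8 ± 4.22 in NC+DMSO and 5.32 ± 0.995 in NC+VCR, against 7.72 ± 2.26 in PTPN21+DMSO and 4.25 ± 0.767 in PTPN21+VCR (SD, n = 3). With VCR in control cells it fell by 1.19 on the log2 scale (SE 0.265, adjusted p = 0.00486), where AURKA had a positive log2 fold change. In PTPN21 cells its log2 fold change with VCR was -0.71 (limma adjusted p = 0.0647), where AURKA rose. In PTPN21+DMSO against NC+DMSO, where AURKA fell, that of AURKAP1 was -0.75 (limma adjusted p = 0.104), and neither value passed. The sequences of AURKA and AURKAP1 were not compared. How the authors' counting divided reads between gene and pseudogene is not given in the sources used here, so the level of each is uncertain.

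TPX2, the spindle activator of Aurora A, passed in none of the 4 comparisons. Its FPKM was 191.1, 175.5 and 196.9 in NC+DMSO, 137.4, 163.3 and 157.5 in PTPN21+DMSO, 193.7, 184.0 and 186.5 in NC+VCR, and 172.4, 178.0 and 156.6 in PTPN21+VCR. Every PTPN21 library was below every NC library of the same treatment, by 0.30 on the log2 scale in DMSO (limma adjusted p = 0.0929) and by 0.15 in VCR (limma adjusted p = 0.472), neither past the threshold. With VCR in control cells its log2 fold change was 0.003, with a 95% interval of -0.22 to 0.22, and in PTPN21 cells it was 0.15 (limma adjusted p = 0.303). These results depended on the scaling. With VCR, TPX2 passed as higher in control cells under median ratio scaling (log2 fold change 0.40, limma adjusted p = 0.0102), and in PTPN21 cells under median ratio scaling (0.33, limma adjusted p = 0.0272) and quantile normalization (0.31, limma adjusted p = 0.0467). It passed as lower in PTPN21+DMSO against NC+DMSO under TPM scaling (limma adjusted p = 0.0387) and quantile normalization (0.0447).

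BORA, the cofactor of Aurora A toward PLK1, was the least abundant of the 7. Its FPKM was 5.46, 3.13 and 6.14 in NC+DMSO, 3.71, 5.27 and 4.47 in PTPN21+DMSO, 2.79, 7.13 and 3.19 in NC+VCR, and 6.45, 5.10 and 5.60 in PTPN21+VCR. The groups overlapped in all 4 comparisons, and no limma adjusted p was below 0.494. DIS3, on the opposite strand, was at 6.47 ± 1.93 FPKM in NC+DMSO and 2.50 ± 0.544 in PTPN21+DMSO (SD, n = 3), a fall by 1.07 on the log2 scale (adjusted p = 0.0409), where BORA had a log2 fold change of -0.08.

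Of the passenger complex, only CDCA8 passed the test on the deposited scale, in 1 comparison. CDCA8 was at 28.7, 19.2 and 27.8 FPKM in NC+DMSO, 14.5, 20.5 and 17.5 in PTPN21+DMSO, 32.0, 27.5 and 28.4 in NC+VCR, and 32.3, 35.6 and 23.1 in PTPN21+VCR. The PTPN21+DMSO libraries were all below both VCR groups and overlapped NC+DMSO at a single library. With VCR in PTPN21 cells CDCA8 rose 1.68-fold on the FPKM + 1 scale, or by 0.75 ± 0.201 (SE) on the log2 scale (adjusted p = 0.0154). The call was lost without PTPN21+DMSO replicate 1 (limma adjusted p = 0.0646), PTPN21+VCR replicate 1 (0.0557) or PTPN21+VCR replicate 2 (0.0677). In control cells its log2 fold change with VCR was 0.22 (limma adjusted p = 0.403), and the interaction was 0.53 (limma adjusted p = 0.416).

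INCENP, the scaffold, was lowest in PTPN21+VCR. Its FPKM was 12.1, 16.0 and 33.9 in NC+DMSO, 9.52, 12.8 and 11.7 in PTPN21+DMSO, 18.7, 12.5 and 19.9 in NC+VCR, and 8.59, 9.10 and 5.91 in PTPN21+VCR. NC+DMSO replicate 3 was the highest of the 12 libraries, and the PTPN21+VCR libraries were below all others. Its log2 fold change against NC+VCR there was -1.02 (SE 0.318, adjusted p = 0.122), lower than that of all but 0.932% of genes tested. Without NC+DMSO replicate 3, which is in neither group but enters the shared estimate of the spread, the limma adjusted p was 0.0372. With VCR in control cells the log2 fold change was -0.16, but 0.25 without that library and 0.0385 without NC+VCR replicate 2.

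AURKB, the kinase of the complex, did not pass in any comparison on the deposited scale. AURKB was at 28.1, 28.5 and 24.7 FPKM in NC+DMSO, 34.4, 39.5 and 29.6 in PTPN21+DMSO, 30.3, 29.9 and 27.2 in NC+VCR, and 22.7, 28.0 and 30.3 in PTPN21+VCR. All PTPN21+DMSO libraries were above all NC+DMSO libraries, a difference of 0.33 on the log2 scale (95% interval 0.007 to 0.65, limma adjusted p = 0.186), where AURKA had fallen. With VCR in PTPN21 cells it differed by -0.34 on the log2 scale (limma adjusted p = 0.107).

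BIRC5, the subunit also known as an inhibitor of apoptosis, stayed between 14.9 and 21.9 FPKM in all libraries. Its FPKM was 17.9, 20.4 and 16.2 in NC+DMSO, 17.4, 20.2 and 15.4 in PTPN21+DMSO, 21.9, 15.02 and 14.9 in NC+VCR, and 19.7, 21.8 and 19.6 in PTPN21+VCR. The groups overlapped in all 4 comparisons. Against NC+VCR, PTPN21+VCR had a log2 fold change of 0.24, with a 95% interval of -0.13 to 0.62 (limma adjusted p = 0.514).

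**Figure D2:**
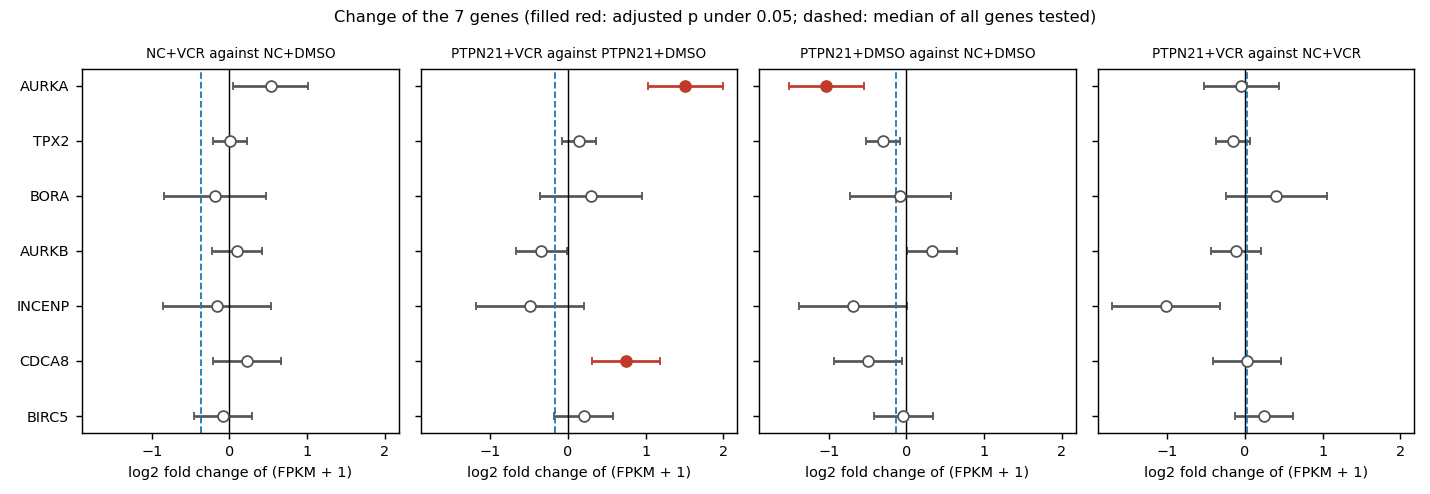
Log2 fold change of FPKM + 1 for the 7 genes in the 4 comparisons, with 95% limma intervals; filled red points have an adjusted p under 0.05 and the dashed line is the median of all 11591 genes tested. AURKA and CDCA8 are filled in PTPN21+VCR against PTPN21+DMSO, at 1.51 and 0.75, and AURKA in PTPN21+DMSO against NC+DMSO, at -1.03.

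By comparison, VCR in control cells called 0 of the 7 genes, where limma called 36.2% of all genes tested and 1 of the 7 had an unadjusted p under 0.05. Its groups overlapped for 7 of 7, while those of 44.1% of all genes did not. The median log2 fold change was 0.003 for the 7 genes and -0.36 for all genes, and 7 of 7 were above the median of all genes. The scaling changed these calls: median ratio scaling, which centres all genes near 0, called AURKA (0.93), CDCA8 (0.61), AURKB (0.49) and TPX2 (0.40) as higher. Under that scaling and quantile normalization BIRC5, INCENP and BORA, which were negative as deposited, turned positive, and under TPM scaling AURKB and TPX2 turned negative. VCR in PTPN21 cells called 2 of 7 as higher, where 9.22% of all genes were called higher, 19.3% lower and 28.5% in either direction, with medians of 0.20 for the 7 genes and -0.17 for all. Its groups did not overlap for AURKA and CDCA8, both higher, and INCENP, lower, against 50.4% of all genes.

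PTPN21 overexpression in DMSO called 1 of 7 as lower, where 3.69% of all genes were called lower and 6.34% in either direction. The libraries of PTPN21+DMSO and NC+DMSO did not overlap for 3 of 7 (AURKA and TPX2 lower, AURKB higher), against 33.4% of all genes. PTPN21 overexpression in VCR called 0 of 7, where 1.82% of all genes were called, and the groups did not overlap for INCENP and TPX2, both lower, against 22.5% of all genes; 1 of 7 had an unadjusted p under 0.05. The interaction called 0 of 7 and 0.129% of all genes, with 1 unadjusted p under 0.05. The VCR and PTPN21 comparisons share groups with each other, so their values are not independent.

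Ratios between partners within a library do not depend on the scaling of that library, apart from the pseudocount. For each ratio, the difference of log2(FPKM + 1) was compared between 6 and 6 libraries by a two-sided exact permutation test within the other factor, with 400 permutations, a smallest possible p of 0.005 and Benjamini-Hochberg adjustment over 10 tests. The ratio of AURKA to TPX2 was 0.539 ± 0.113 in NC+DMSO and 0.775 ± 0.117 in NC+VCR, against 0.320 ± 0.0565 in PTPN21+DMSO and 0.833 ± 0.114 in PTPN21+VCR (SD, n = 3). It was 0.95 higher on the log2 scale with VCR (exact permutation p = 0.01, adjusted 0.0333), by 0.53 in control and 1.37 in PTPN21 cells. The VCR and DMSO libraries did not overlap in PTPN21 cells and overlapped in control cells. AURKA relative to BORA was 0.97 higher with VCR (exact permutation p = 0.015, adjusted 0.0375), with a wide spread in NC+VCR, where the ratio was 58.7, 16.5 and 49.0.

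Within the passenger complex, the ratio of the kinase to its scaffold was higher with PTPN21. In VCR the log2 fold change with PTPN21 was -0.11 for AURKB and -1.02 for INCENP. In DMSO it was 0.33 for AURKB and -0.69 for INCENP, and none of these values passed in limma. The ratio of AURKB to INCENP was 2.33, 1.78 and 0.729 in NC+DMSO, 3.61, 3.08 and 2.52 in PTPN21+DMSO, 1.62, 2.40 and 1.37 in NC+VCR, and 2.65, 3.08 and 5.13 in PTPN21+VCR. Every PTPN21 library was above every NC library of the same treatment, by 0.96 on the log2 scale (exact permutation p = 0.005, the smallest these permutations can give, adjusted 0.0333). BIRC5 to INCENP was also 0.96 higher with PTPN21 (exact permutation p = 0.01, adjusted 0.0333). For this ratio the PTPN21 and NC libraries overlapped in DMSO (0.65 on the log2 scale) and did not in VCR (1.26). These ratios share INCENP, so they are not independent of each other.

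The ratio of CDCA8 to INCENP was 3.77, 3.91 and 3.91 in PTPN21+VCR and at most 2.38 in each of the other 9 libraries. Over both treatments the difference with PTPN21 was 0.62 on the log2 scale (exact permutation p = 0.035, adjusted 0.0571), 0.19 in DMSO and 1.05 in VCR. With VCR it was 0.81 (exact permutation p = 0.025, adjusted 0.05), 0.38 in control and 1.24 in PTPN21 cells, so neither was below 0.05 after adjustment. Without NC+DMSO replicate 3 the difference with PTPN21 was 0.45 for CDCA8 to INCENP (exact permutation p = 0.135) and 0.73 for AURKB to INCENP, where it still passed. The other 4 tests gave adjusted exact permutation p from 0.0571 to 0.535, among them AURKA to TPX2 with PTPN21, at -0.31 (adjusted 0.169).

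**Figure D3:**
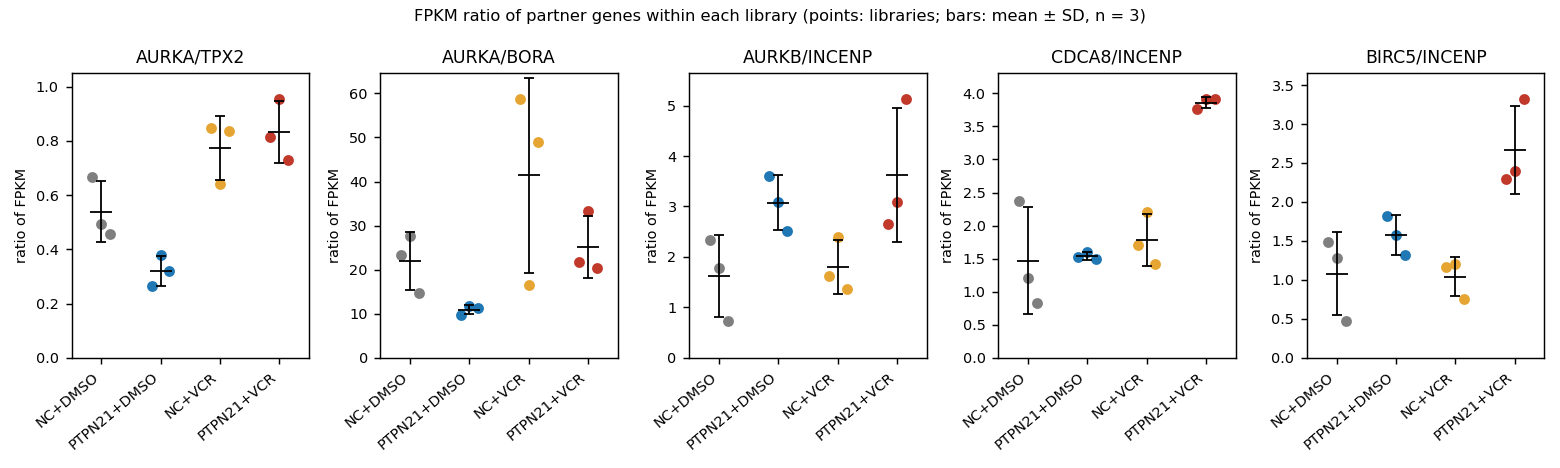
FPKM ratio of 5 pairs of partner genes in each library, by group; points are libraries and bars are mean ± SD (n = 3), and each linear axis starts at 0. The 3 PTPN21+VCR libraries stand together for CDCA8/INCENP, at 3.77 to 3.91, above all others.

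The other genes of the pathway were grouped in lists, which were chosen with earlier results of these data known. Their shares beside those of all genes are therefore descriptions. Of 16 Aurora A regulators and substrates 14 were tested. With VCR 3 were called higher and 2 lower in control cells, where 7.91% and 28.3% of all genes were called, and 5 higher and 0 lower in PTPN21 cells, where 9.22% and 19.3% were. PLK1, the mitotic kinase that Aurora A activates with BORA, rose from 33.1 ± 2.77 to 78.7 ± 7.15 FPKM with VCR in control cells (SD, n = 3; log2 fold change 1.23, limma adjusted p = 0.000281). PLK1 also rose in PTPN21 cells, by 1.09 on the log2 scale (limma adjusted p = 0.000676). HMMR, a spindle protein that binds TPX2, rose from 69.1 ± 10.2 to 199.8 ± 27.4 FPKM in PTPN21 cells (log2 fold change 1.52, limma adjusted p = 7.4e-05). HMMR also rose in control cells, by 1.02 on the log2 scale (limma adjusted p = 0.000927). GSK3B fell by 0.89 on the log2 scale in control cells (limma adjusted p = 0.0342). In PTPN21+DMSO against NC+DMSO, 2 were lower, or 14.3%, beside 3.69% of all genes. Among them was KIF11, the motor that separates spindle poles, at -0.89 (limma adjusted p = 0.0370). Of the 14 tested, 13 were negative, with a median of -0.42 against -0.14 for all genes.

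Of the Aurora B recruiters, substrates and adaptors 17 were tested, and with VCR 5 were higher and 5 lower in control cells and 5 higher and 3 lower in PTPN21 cells. The lower shares, 29.4% and 17.6%, were near the 28.3% and 19.3% of all genes, while the higher share was 29.4% in both, beside 7.91% and 9.22%. CENPA, the centromeric histone H3 variant that Aurora B phosphorylates, rose from 9.82 ± 6.72 to 60.8 ± 11.04 FPKM with VCR in control cells (SD, n = 3; log2 fold change 2.70, limma adjusted p = 0.000483). In PTPN21 cells the log2 fold change of CENPA with VCR was -0.50 (limma adjusted p = 0.390). Its interaction was -3.20 (limma adjusted p = 0.0562), and neither passed. CENPA was also the 1 gene of this list called in PTPN21+DMSO against NC+DMSO, at 51.8 ± 9.13 FPKM (log2 fold change 2.48, limma adjusted p = 0.0101). That was 5.88% higher, beside 2.65% of all genes. KIF20A, the kinesin that carries the complex to the spindle midzone, rose with VCR in PTPN21 cells from 15.2 ± 1.42 to 33.0 ± 2.29 FPKM (log2 fold change 1.08, limma adjusted p = 0.000225). KIF20A rose in control cells too, by 1.15 on the log2 scale (limma adjusted p = 0.000131). RCC2, which associates with the complex at centromeres, fell with VCR, by 1.44 on the log2 scale in control cells (adjusted p = 0.000601), and in PTPN21 cells from 22.7 ± 2.13 to 10.1 ± 1.43 FPKM (adjusted p = 0.00373).

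A list of 16 genes held phosphatases that oppose Aurora kinases and proteins that bind such phosphatases. With VCR 2 were higher and 2 lower in control cells, and 3 higher and 1 lower in PTPN21 cells. That was 12.5% higher and 12.5% lower, then 18.8% higher and 6.25% lower, beside the shares of all genes given above. These calls included CDCA2, higher in both, and RIF1, lower in control cells, which are binding proteins and not phosphatases. PPP2R5B, a B56 regulatory subunit of PP2A, rose in both, by 1.51 on the log2 scale in control cells (adjusted p = 0.000517) and by 1.27 in PTPN21 cells (0.00181). PPP1CB, a catalytic subunit of PP1, fell by 1.75 in control cells (limma adjusted p = 0.0400), and PPP6R1, a subunit of the PP6 complex that acts on Aurora A, fell by 0.77 in PTPN21 cells (limma adjusted p = 0.0301). PPP6C, its catalytic subunit, was the 1 gene called in PTPN21+DMSO against NC+DMSO, at -0.84 (limma adjusted p = 0.0260). That was 6.25% lower, beside 3.69% of all genes. None of these 3 lists had a gene called between PTPN21+VCR and NC+VCR, where 1.82% of all genes were called.

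Transcription factors that act on G2/M promoters made up another list. Of 14 tested, 7 were lower and 0 higher with VCR in control cells, with a median of -0.70 against -0.36 for all genes; 1 was called under median ratio scaling. LIN37, a MuvB subunit, had the largest fall, by 1.25 on the log2 scale (limma adjusted p = 0.0432), although its libraries overlapped. In PTPN21 cells 3 were lower, with E2F4 at -0.85 (limma adjusted p = 0.00335). E2F4 was also lower in control cells, at -0.77 (limma adjusted p = 0.0047). In PTPN21+DMSO against NC+DMSO 2 were lower, with LIN54 at -0.97 (limma adjusted p = 0.0448). With VCR the lower share was 50% in control cells, beside 28.3% of all genes, and 21.4% in PTPN21 cells, near the 19.3% of all genes. With PTPN21 in DMSO it was 14.3%, beside 3.69% of all genes.

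For comparison, 23 other G2/M genes were tested. With VCR 8 were higher and 4 lower in control cells (median 0.11), and 13 higher and 1 lower in PTPN21 cells (median 0.80). That was 34.8% higher and 17.4% lower in control cells, beside 7.91% and 28.3% of all genes. In PTPN21 cells it was 56.5% higher and 4.35% lower, beside 9.22% and 19.3%. Of 25 G1/S genes 18 and 16 were lower, with medians of -0.72 and -0.64, and 0 and 1 were higher; under median ratio scaling 9 were called in control cells. The lower shares of the G1/S genes with VCR were 72% and 64%, beside 28.3% and 19.3% of all genes. In PTPN21+DMSO against NC+DMSO 5 of each list were lower and 0 higher. That was 21.7% of the other G2/M genes and 20% of the G1/S genes, beside 3.69% of all genes. The interaction called 0 genes of any of these 6 lists, where it called only 0.129% of all genes. The counts with PTPN21 in DMSO rested on single libraries: for the other G2/M genes 12 were called without NC+DMSO replicate 2, 1 without NC+DMSO replicate 1 or 3 or PTPN21+DMSO replicate 3, and 0 without PTPN21+DMSO replicate 1. With VCR in control cells 6 other G2/M genes were called without NC+VCR replicate 3, and 3 transcription factors without NC+VCR replicate 2 or 3. With VCR in PTPN21 cells the Aurora A list had 3 called without PTPN21+DMSO replicate 1 or 3 or PTPN21+VCR replicate 1 or 2, and the Aurora B list 5 without PTPN21+DMSO replicate 2 or PTPN21+VCR replicate 1. The phosphatase list had 1 called in PTPN21 cells without PTPN21+VCR replicate 2, and 2 in control cells without NC+DMSO replicate 1 or 3 or NC+VCR replicate 3.

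**Figure D4:**
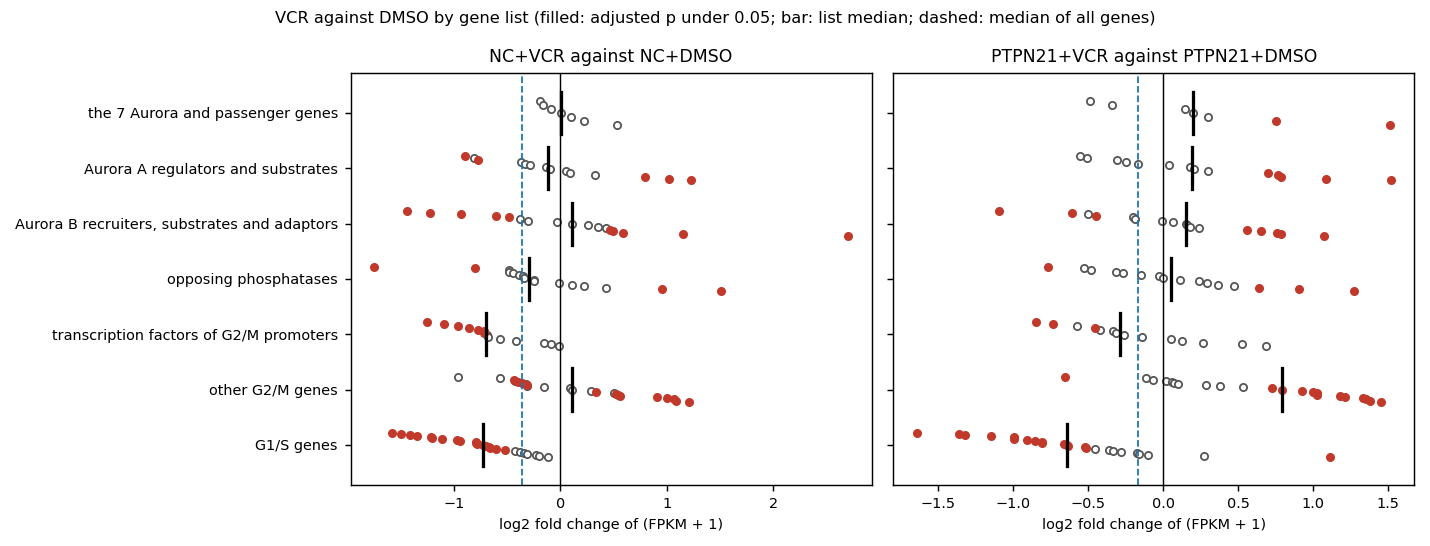
Log2 fold change of FPKM + 1 with VCR in control cells (left) and PTPN21 cells (right) for the 7 genes and 6 gene lists; points are genes (filled: limma adjusted p under 0.05), black bars are list medians and the dashed line is the median of all genes tested. The median of the other G2/M genes is at 0.11 on the left and 0.80 on the right, and that of the G1/S genes at -0.72 and -0.64.

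Across the 12 libraries the 7 genes did not share a single pattern. Pearson's r of log2(FPKM + 1) between AURKA and CDCA8 was 0.93, and CDCA8 was rank 14 of 11590 genes by likeness to AURKA. AURKA and TPX2 had r = 0.75, INCENP and TPX2 0.64, and AURKB had r = -0.54 with AURKA, -0.58 with CDCA8 and -0.21 with its scaffold INCENP. The points share groups, depth and scaling, so these are descriptions. The genes most like AURKA were AGAP9 (r = 0.98), PARP2 (0.97) and ZUP1 (0.95), and those most like CDCA8 were ZNF207 (0.97), DDX5 (0.96) and HERC4 (0.95). TPX2 was closest to MAPK6 (0.99), ITGB1 (0.97) and MSN (0.97), and INCENP to VASP (0.95), EIF4G1 (0.94) and TAF15 (0.91). AURKB was closest to AC122718.1 (0.95), ZMYND19 (0.86) and VRK1 (0.85), BIRC5 to COQ6 (0.85), LCAT (0.85) and HILPDA (0.84), and BORA to ZNF816 (0.82), NKIRAS1 (0.81) and SESN1 (0.81).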

How the data were processed

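RNA of 12 libraries labelled Jurkat was sequenced, with groups and replicate numbers taken from the sample labels. The authors deposited FPKM made by an external company for 60671 genes, all with human Ensembl identifiers; the submitters' processing notes name fastp, Bowtie2 and the mouse build mm10, which does not match those identifiers, and versions, counting program and strand setting are not given in the sources used here. All 12 value columns were matched to samples by name. GENCODE release 29 (GRCh38) held 58453 of the genes and gave positions and lengths.

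Deposited FPKM values were turned into log2(FPKM + 1) for the 11591 genes with a mean of at least 1 FPKM. The 4 group means were fitted in limma 3.58.1 (R 4.3.3) with an intensity trend and no block, with Benjamini-Hochberg adjustment over every gene tested and a threshold of 0.05. A fold change on this scale understates that of low genes. The depth estimate, the limma fit and the permutation test of the ratios were each tested on simulated data. Depth was estimated from 8706 single-exon genes of at least 500 bases; the range searched, 13000000 to 25000000 fragments, was narrowed after a first test gave 2 times the true depth, and a step of 1 fragment cannot be told from a step of 2. Between 31.9% and 42.4% of low values lay near a whole step, against 20% by chance.

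The genes named are the 7 members, PTPN21, for each member the 3 genes with the highest Pearson r, and of each pathway list the largest rise and fall past the threshold. CDCA2 and RIF1 were also named, as called genes of the phosphatase list that are not phosphatases. DIS3 and AURKAP1 and the named cell type markers were chosen for what they overlap, copy or mark; 1 marker is not reported here and is left out of its list. The members and lists were chosen with earlier results of these data known. Same-numbered replicates of different groups had deviation correlations of -0.15 to 0.06 in 18 pairs, so the numbers were not treated as pairs. As alternatives, no filter, a mean of at least 5 FPKM, a pseudocount of 0.1, TPM scaling, median ratio scaling, quantile normalization, no trend, only the 2 groups compared, a replicate block and leaving out each library were tried. Python 3.11.15 with pandas 2.3.3, numpy 2.4.6, scipy 1.17.1 and matplotlib 3.10.9 was used.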

Additional observations from a re-analysis of the deposited data

How the results depend on the processing

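Changes may be missed with 3 libraries per group, and the depth behind the FPKM is only an estimate. AURKA with VCR in PTPN21 cells passed in 21 of 21 alternatives and CDCA8 in 18 of 21, while AURKA in PTPN21+DMSO against NC+DMSO passed in 14 of 21. Where a value changed, the cause was not tested unless fewer genes or samples entered the fit.

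The number of the 7 genes called with VCR in control cells was 4 under median ratio scaling. In PTPN21+DMSO against NC+DMSO it was 2 under TPM scaling and quantile normalization, and 0 with no filter, with only the 2 groups compared and with the replicate block. The number of all genes called was 2674 with VCR in control cells with only the 2 groups. For PTPN21+DMSO against NC+DMSO this number was 40 with only the 2 groups, 177 with no filter and 321 without the trend. In PTPN21+VCR against NC+VCR it was 118 with no filter, 344 at a mean of at least 5 FPKM, 130 under median ratio scaling, 72 without the trend and 117 with only the 2 groups. For the interaction it was 8 with no filter and at a mean of at least 5 FPKM, and 9 without the trend. The AURKA to BORA ratio with PTPN21 was -0.75 at a pseudocount of 0.1 (exact permutation p = 0.05).

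Replicates of the same number did not deviate together. With the replicate number as a block, the genes called were 242 in PTPN21+DMSO against NC+DMSO, 74 in PTPN21+VCR against NC+VCR, 8 for the interaction, 3796 with VCR in control cells and 2956 in PTPN21 cells. The block ended the call of AURKA in PTPN21+DMSO against NC+DMSO and no other call of the 7 genes.

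The sign turned in these log2 fold changes, none past the threshold. With VCR in control cells, TPM scaling gave -0.000366 for AURKB and -0.10 for TPX2, median ratio scaling 0.22 for INCENP, 0.30 for BIRC5 and 0.14 for BORA, and quantile normalization 0.13, 0.25 and 0.23. In PTPN21+DMSO against NC+DMSO, BIRC5 and BORA were 0.15 and 0.0854 under median ratio scaling and 0.13 and 0.12 under quantile normalization. In PTPN21+VCR against NC+VCR CDCA8 was -0.0282 under TPM scaling, and the interaction of TPX2 was -0.0720 under median ratio scaling.

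With each library left out in turn, VCR in control cells called 3224 to 4024 genes and 0 to 1 of the 7, and VCR in PTPN21 cells 2353 to 3619 and 1 to 2. PTPN21+DMSO against NC+DMSO called 67 to 1345 genes and 0 to 1 of the 7, PTPN21+VCR against NC+VCR 43 to 354 and 0 to 1, and the interaction 7 to 30 and 0. The lowest and highest counts came without PTPN21+DMSO replicate 1 and NC+DMSO replicate 2 for PTPN21 in DMSO, without PTPN21+VCR replicate 2 and NC+DMSO replicate 3 for PTPN21 in VCR, and without NC+DMSO replicates 1 and 2 in turn for the interaction. The log2 fold changes with VCR in control cells ran from -0.26 to 0.00557 for BIRC5, -0.0446 to 0.0379 for TPX2, -0.46 to 0.25 for INCENP and -0.53 to 0.0219 for BORA. In PTPN21+DMSO against NC+DMSO they ran from -0.32 to 0.0764 for BORA and -0.14 to 0.0490 for BIRC5. In PTPN21+VCR against NC+VCR they ran from -0.20 to 0.0970 for AURKA, -0.0925 to 0.21 for CDCA8 and -0.20 to 0.00206 for AURKB. The ratio differences with VCR ran from -0.0309 (without NC+DMSO replicate 3) to 0.37 for AURKB to INCENP and 0.65 to 1.01 for CDCA8 to INCENP. With PTPN21 they ran from -0.38 to -0.23 for AURKA to TPX2, -0.95 to -0.55 for AURKA to BORA and 0.45 to 0.82 for CDCA8 to INCENP.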
